A study of Mus musculus with 18 samples.

Results

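This account concerns the response of cardiac Thy1+ cells of the KK/HlJ mouse strain to isoproterenol (ISO), a drug that activates beta-adrenergic receptors. The libraries were chosen by their titles: 4 libraries of ISO hearts, 2 at day 14 and 2 at day 21, were set against 2 libraries of sham hearts, 6 of the 18 libraries in the series. The series also holds C57BL/6 and C3H/HeJ mice under the same design, and by its title it concerns fibroblast responses across mouse strains. Mice received an implanted pump that delivered saline (sham) or ISO, and all groups, sham included, thus had the implantation. Cells of the ISO hearts were taken 14 or 21 days later. The sham labels give no day, so the same 2 sham libraries served both days. No age or sex is used here, the labels name no transgene, and the sorted population is written as Thy1+ HE in one field and Thy1+HE- in another without spelling out HE. Whether the 2 libraries of a group are 2 animals is not stated, and a p-value here reflects only how far libraries differ, possibly for technical reasons.

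Fibroblasts keep the collagen network of the heart in repair and carry Thy1, a surface protein, together with the receptor Pdgfra and the transcription factor Tcf21. When the myocardium is overloaded, as under lasting beta-adrenergic drive, they are known to turn on matricellular proteins such as periostin, and collagens, a process in which TGF-beta is the best studied signal. KK/HlJ is an inbred strain known for obesity and insulin resistance.

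Fibroblast genes were abundant in each of the 6 libraries. The summed level of 30 resting fibroblast markers ran from 125600 to 131600 CPM (read counts scaled to library size) in sham and from 99710 to 128100 CPM under ISO. Immune markers were low. The 22 macrophage and monocyte markers summed to 22.8 and 24.2 CPM in sham and to 18.8 to 148.7 CPM under ISO, with the top value in day 14 library 1 and with Aif1, Ccr2, Fcgr1 and Itgam at 0 in all 6. The 19 lymphocyte markers reached at most 7.53 CPM, and 10 of them were at 0 in all 6. The 23 endothelial markers had sums of 969 and 1167 CPM in sham and of 1079 to 1773 CPM under ISO. Ly6c1 is in both this list and that of resting fibroblast markers. The endothelial genes Cdh5 and Emcn were near 0 in sham, so the sham sums rest on other members and do not measure endothelial content. Pericyte and smooth muscle markers ran from 3494 to 4263 CPM in sham and from 3251 to 4826 CPM under ISO. In bulk RNA, fewer cells of a type and less RNA per cell cannot be told apart.

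The KK/HlJ libraries were uneven, which touches every comparison below. Total counts ran from 7230741 to 23832629 per library. Replicates correlated at r = 0.774 in sham, 0.798 at day 14 and 0.839 at day 21 over 10055 genes in log2 CPM. Of those 10055 genes, which average at least 5 CPM over the series, 853 (8.48%) had 3 counts or fewer in day 14 library 1 and 574 (5.71%) in day 21 library 1. The shares were 2.79% and 1.94% in the sham libraries, and 0.0995% and 0.159% in day 14 library 2 and day 21 library 2. In the other strains the share ran from 0.0796% to 3.23%.

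**Figure D1:**
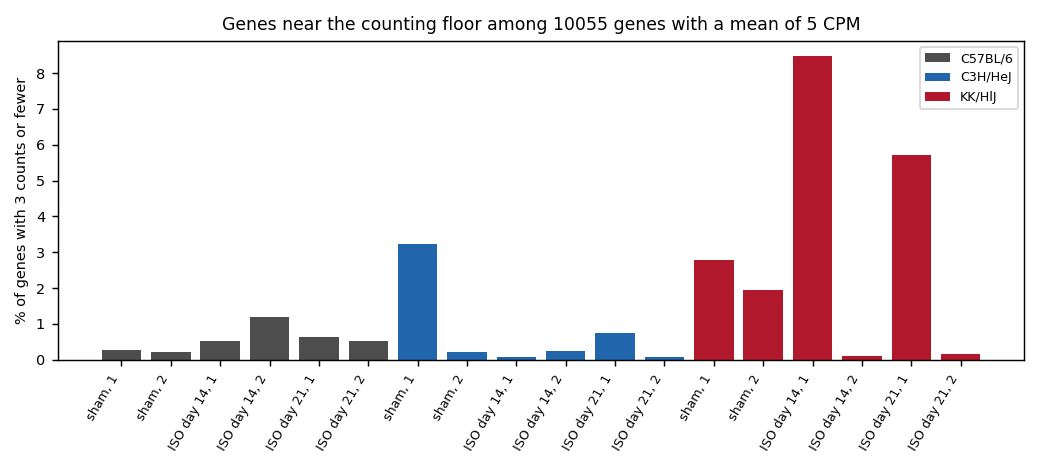
Share of genes with 3 counts or fewer (vertical axis, percent) in each of the 18 libraries, among the 10055 genes that average at least 5 CPM over the series. Day 14 library 1 (8.48%) and day 21 library 1 (5.71%) of KK/HlJ stand above the rest.

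With both days pooled, no gene passed an adjusted p under 0.05 in edgeR's quasi-likelihood test (0 of 15762 genes, a background of 0%). At an unadjusted p under 0.05, 506 genes (3.21%) were higher and 542 (3.44%) lower. These shares are the background for the pooled counts of each gene list below. DESeq2 called 254 genes, 188 higher and 66 lower, and limma voom called 0. In 911 genes (5.78%) all 4 ISO libraries lay above both sham libraries, and in 905 (5.74%) all 4 lay below. The median log2 fold change over all genes was 0.06. It was 0.19 without sham library 1, 0.29 without sham library 2, and from -0.05 to 0.08 without any 1 ISO library. These are the background for list medians given below with a library left out. By day, edgeR called 0 genes at day 14, with 479 higher (3.04%) and 268 lower (1.7%) at an unadjusted p under 0.05, and DESeq2 called 148. At day 21 edgeR called 3 genes, all higher: Postn, Ltbp2 and Uggt2. They are 0.019% of the genes tested. At that day 484 genes (3.07%) were higher and 340 (2.16%) lower at an unadjusted p under 0.05, and DESeq2 called 161. Leaving out any 1 of the 6 libraries leaves its group with a single library, which adds nothing to the estimate of the spread. Pooled calls rose in each such fit, and they cannot be set against the counts above. Both days were set against the same sham libraries, so their values stand side by side below and are not independent of each other.

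Postn encodes periostin, a matricellular protein of the injured heart (chromosome 3, 54361109 to 54391037, plus strand, mm10). It measured 246 and 448 CPM in sham, 1053 and 1881 CPM at day 14, and 1264 and 2232 CPM at day 21. Each ISO library exceeded both sham libraries, and library 2 was above library 1 in all 3 groups. The pooled log2 fold change was 2.21 ± 0.37 (SE), or 4.63-fold in mean CPM, with an adjusted p of 0.0728. It was 2.08 at day 14 and 2.33 ± 0.40 (SE) at day 21, where Postn rose at an adjusted p of 0.0471.

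Ltbp2 encodes latent TGF-beta binding protein 2, a secreted protein of the microfibrils (chromosome 12, minus strand). It measured 71.2 and 60.1 CPM in sham, 226 and 212 CPM at day 14, and 412 and 269 CPM at day 21. The groups did not overlap, and both day 21 libraries were above both day 14 libraries. The pooled log2 fold change was 2.06 ± 0.37 (SE), or 4.26-fold, with an adjusted p of 0.0728. It was 1.74 at day 14 and 2.37 at day 21, where Ltbp2 rose at an adjusted p of 0.0471.

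Uggt2, an enzyme that reglucosylates misfolded glycoproteins in the endoplasmic reticulum, behaved differently. It had 1 count in each sham library, and 10.1 and 18.2 CPM at day 14 and 17.7 and 25.1 CPM at day 21. Against a floor of 3 counts per library, the ISO mean was at least 66.0-fold higher, and the day 21 adjusted p was 0.0471. In sham libraries of C57BL/6 and C3H/HeJ, however, Uggt2 averaged 9.53 and 9.90 CPM, and its pooled log2 fold change there was 0.04 and 0.82. The means of its ISO groups there ran from 8.14 to 17.9 CPM, so the KK/HlJ sham libraries were the low ones.

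The 3 day 21 calls are close to the threshold and depend on the fit, which shares its spread over all 18 libraries. In DESeq2 all 3 passed, with an adjusted p of 0.00017 for Postn, 1.52e-05 for Ltbp2 and 6.36e-06 for Uggt2. They also passed in edgeR without a filter on low counts (adjusted p of 1.71e-07, 2.83e-05 and 0.000385 in that order). Other settings went the other way. With RLE scaling none of the 3 passed (adjusted p of 0.0537 for each), nor did any in limma voom. When genes had to average 5 CPM, the adjusted p was 0.176 for Postn and 0.15 for Ltbp2 and Uggt2. With only the 6 KK/HlJ libraries fitted, the adjusted p was 0.806 for Postn and 0.596 for Ltbp2, and Uggt2 did not pass either. With the replicate number as a block, and without sham replicate 1, Uggt2 was lost (adjusted p of 0.13 and 0.059).

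The upstream windows of these 3 genes are given because they are the genes called. They are the 250 bases before the transcription start in RefSeq (GRCm38.p6), 5′ to 3′ on the gene's strand. Capitals mark TATAAA, the letters of a TATA box, a motif added after the sequences were seen. The Postn window at chr3:54360857-54361106 (plus strand) and the windows of Ltbp2 at chr12:84876492-84876741 and Uggt2 at chr14:119099435-119099684 (minus strand) read:
Postn: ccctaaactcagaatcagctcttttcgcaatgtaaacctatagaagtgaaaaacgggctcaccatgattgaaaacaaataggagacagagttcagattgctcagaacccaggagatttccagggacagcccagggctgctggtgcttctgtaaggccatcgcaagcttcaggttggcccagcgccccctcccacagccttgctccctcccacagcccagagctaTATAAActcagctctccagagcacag
Ltbp2: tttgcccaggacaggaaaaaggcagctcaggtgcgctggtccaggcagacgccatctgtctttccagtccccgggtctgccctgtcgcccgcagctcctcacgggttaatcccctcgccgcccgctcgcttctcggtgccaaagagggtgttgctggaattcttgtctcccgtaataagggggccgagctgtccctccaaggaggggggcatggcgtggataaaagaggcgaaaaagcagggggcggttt
Uggt2: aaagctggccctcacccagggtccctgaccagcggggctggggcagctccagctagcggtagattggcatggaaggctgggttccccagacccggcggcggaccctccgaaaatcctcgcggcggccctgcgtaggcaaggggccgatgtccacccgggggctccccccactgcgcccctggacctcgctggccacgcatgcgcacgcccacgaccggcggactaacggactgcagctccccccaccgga
Their GC content was 52.0% in Postn, 61.6% in Ltbp2 and 71.6% in Uggt2. The median was 52.4% over the windows searched, which do not cover every chromosome. TATAAA stands 26 bases before the Postn start, and 8.32% of the 32851 windows hold it on the gene's strand. A second RefSeq start of Postn lies upstream and its window holds none of the motifs. The short cAMP response element TGACG, the full cAMP response element, the AP-1 site TGANTCA, the TEAD site GGAATG and the SMAD box CAGACA were searched on both strands of the 300 bases around each start. None of the 5 stood in the windows of Postn, Ltbp2 or Uggt2. The shares among the windows searched were 20.8% for the short element, 1.79% for the full element (which contains the short one), 7.81% for AP-1, 14.7% for TEAD and 21.0% for the SMAD box. Among the genes that the naming rule gives for the pooled comparison, 2 of the 9 higher ones with a window held the short element and 0 the full one, against 3 and 2 of the 7 lower ones.

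Matricellular and activated fibroblast genes were the clearest group. All 35 were tested, and 0 passed the adjusted test in the pooled comparison (background 0%). At an unadjusted p under 0.05, 13 were higher and 0 lower, and in 14 all 4 ISO libraries lay above both sham libraries, with 0 below. Over all genes these shares were 3.21% higher and 5.78% above. Their median log2 fold change was 0.51, against 0.06 over all genes, and it was 0.45 at day 14 and 0.61 at day 21. Relative to the sham mean, the list's median was 0.67 and 0.51 in the day 14 libraries and 0.62 and 0.59 in those of day 21, while the sham libraries lay at 0.06 and -0.06. Its median was 1.02 without sham library 1 and 1.07 without sham library 2, beside 0.19 and 0.29 over all genes. The list was written with earlier results of these data known, so its direction is not independent evidence.

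Cilp, cartilage intermediate layer protein of the fibroblast matrix, had 205 and 316 CPM in sham, 609 and 707 CPM at day 14, and 681 and 1038 CPM at day 21. Sham lay below all 4 ISO libraries, the days overlapped, and its pooled log2 fold change was 1.53 ± 0.32 (SE; adjusted p of 0.181). Pamr1, a secreted protein with a protease-like domain, measured 96.4 and 128 CPM in sham, 372 and 261 CPM at day 14, and 282 and 243 CPM at day 21. It was the reverse of Ltbp2 in time, with a log2 fold change of 1.50 at day 14 and 1.23 at day 21, and the days overlapped.

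Cartilage- and tendon-like secreted proteins followed the same order. Comp, cartilage oligomeric matrix protein, had 223 and 95.6 CPM in sham and 371 to 506 CPM in the ISO libraries, a log2 fold change of 1.50 (adjusted p of 0.416). Thbs4, a thrombospondin, had 19.4 and 15.7 CPM in sham and 132, 113, 149.5 and 242 CPM under ISO, 9.06-fold in mean CPM, at a log2 fold change of 3.14 ± 1.16 (SE; adjusted p of 0.717). No ISO library of Comp or Thbs4 reached down to sham. Cilp2, a relative of Cilp, had 2.26 and 1.94 CPM in sham and 9.22 to 14.0 CPM under ISO. Prg4, lubricin, measured 67.1 and 24.7 CPM in sham and 88.2, 119.9, 136 and 170.2 CPM under ISO. Of 12 valve interstitial and tendon-like markers, 3 were higher at an unadjusted p under 0.05 and 0 lower, and the median was 1.99, or 0.80 without the 3 at the counting floor. Ddah1, which breaks down methylarginines, was at the floor in sham and in day 14 library 1, and measured 11.6 to 27.1 CPM in the other ISO libraries.

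**Figure D2:**
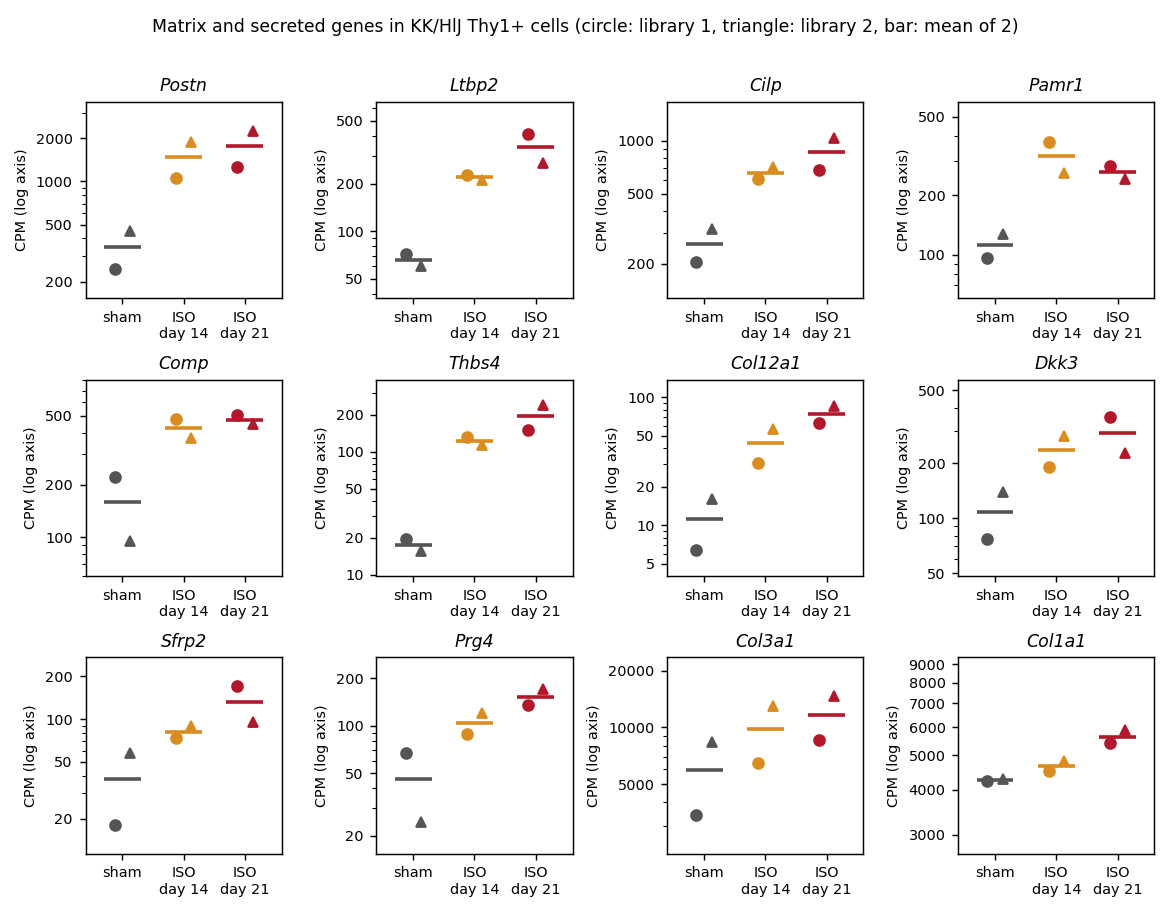
Level of 12 matrix and secreted genes (vertical axes, CPM, log scale) in the 6 KK/HlJ libraries: circles are library 1, triangles library 2 and bars the mean of 2. Postn sits at 246 and 448 CPM in sham and at 1053 to 2232 CPM under ISO, while Col1a1 spans only 4244 to 5880.4 CPM.

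Collagens were less uniform. Col3a1, the main chain of type III collagen, had 3403 and 8405 CPM in sham, 6446 and 13071 CPM at day 14, and 8574 and 14773 CPM at day 21. Library 2 was the higher one in each group, sham library 2 overlapped the ISO libraries, and the log2 fold change of 0.85 ± 0.45 did not pass (adjusted p of 0.773). Col1a1, the main chain of type I collagen, measured 4244 and 4291 CPM in sham and 4525 to 5880.4 CPM under ISO. All 4 ISO libraries were above sham, with a log2 fold change of only 0.27 (adjusted p of 0.884). Of 11 fibrillar collagens, 0 were higher and 1 lower at an unadjusted p under 0.05, and the median of 0.67 became 0.40 without the 3 at the floor. It was 0.25 without sham library 1, 1.21 without sham library 2 and 0.30 without day 21 library 2.

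Col12a1, a collagen that binds to the surface of fibrils, stood out among the other collagens. It had 6.44 and 16.1 CPM in sham, 30.5 and 56.5 CPM at day 14, and 63.1 and 85.7 CPM at day 21. Its levels did not overlap between sham, day 14 and day 21, and the pooled log2 fold change was 2.34 ± 0.57 (adjusted p of 0.347). Col14a1, of the same family, had 651 and 1225 CPM in sham and 1121 to 2078 CPM under ISO, which overlap. Of the 27 other collagens tested, 3 were higher and 0 lower at an unadjusted p under 0.05. Their median was -0.06, or 0.44 without sham library 2, where the median over all genes was 0.29. Among 16 elastic fibre genes, Mfap4, a microfibril protein, alone was higher at that level, with 605 and 969 CPM in sham and 1177 to 2037 CPM under ISO. Of 30 genes that process and crosslink collagen, 3 were higher and 0 lower, against 3.21% of all genes higher.

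Few signalling genes reached an unadjusted p under 0.05. Of 33 TGF-beta pathway genes, 1 was higher at an unadjusted p under 0.05, a share near the 3.21% of all genes, and 0 were lower. The median was 0.21, or 0.41 without sham library 2, where the median over all genes was 0.29. That gene, Smad1, a transducer of bone morphogenetic protein signals, had 8.62 and 17.3 CPM in sham and 42.1 to 57.8 CPM under ISO. The groups did not overlap, and the log2 fold change was 1.93 ± 0.50 (adjusted p of 0.354).

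Of 34 Wnt genes, 4 were higher and 0 lower at an unadjusted p under 0.05, against 3.21% of all genes higher. All 4 encode secreted modulators of Wnt signals. Dkk3 measured 77.3 and 138 CPM in sham, 191 and 283 CPM at day 14, and 357 and 226 CPM at day 21. Sfrp2 had 18.1 and 58.1 CPM in sham and 73.4, 89.5, 170.0 and 96.1 CPM under ISO. Neither overlapped with sham, at log2 fold changes of 1.29 and 1.45. Sfrp4 had 6.18 and 2.40 CPM in sham and 13.8 to 33.3 CPM under ISO. Frzb had 80.8 and 149.9 CPM in sham and 116 to 265 CPM under ISO, where day 14 library 1 lay within the sham range.

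The receptors and messengers that ISO itself engages came next. Of 42 beta-adrenergic and cAMP pathway genes, 1 was higher and 0 lower at an unadjusted p under 0.05. Their median was -0.04, or 0.31 without sham library 2, close to the 0.29 over all genes without that library. Adrb1, a receptor for ISO, was at 0 in both sham libraries and at most 0.974 CPM under ISO.

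Of 30 resting fibroblast markers, 3 were lower and 0 higher at an unadjusted p under 0.05, against 3.44% of all genes lower. The fold change was negative in 19 and positive in 11, with a median of -0.17, or -0.37 without day 14 library 2. Penk, which encodes the precursor of enkephalins, had 101 and 73.4 CPM in sham, 1.17 and 17.1 CPM at day 14, and 36.2 and 12.9 CPM at day 21. Every ISO library was below sham, and the log2 fold change was -2.53 ± 0.67 (adjusted p of 0.44). Dpep1, a membrane dipeptidase, had 1387 and 1800.2 CPM in sham and 675 to 1053 CPM under ISO, and Hsd11b1, which activates glucocorticoids, had 105 and 148 CPM in sham and 29.0 to 93.5 CPM under ISO. The genes of fibroblast identity overlapped between the groups. Pdgfra had 291 and 653 CPM in sham and 246 to 738 CPM under ISO, and Tcf21 318 and 479 CPM in sham and 298 to 415 CPM under ISO. Thy1, the sorting marker, did not overlap. It had 387 and 478 CPM in sham and 266 to 375 CPM under ISO, so all 4 ISO libraries lay below sham with a log2 fold change of -0.38 (adjusted p of 0.797). Acta2, smooth muscle actin of myofibroblasts, had 465 and 444 CPM in sham and 334 to 874 CPM under ISO, with the top value in day 14 library 1.

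Among single genes with lower means under ISO with both days pooled was Apoe, the lipid carrier apolipoprotein E. It had 3558 and 2004 CPM in sham and 946 to 1692 CPM under ISO, a log2 fold change of -1.08 (adjusted p of 0.353). It was -0.95 at day 14 and -1.22 at day 21.

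Genes that respond within minutes of a stimulus had lower means at day 14 than at day 21. Klf2 had 1722 and 802 CPM in sham, 509 and 463 CPM at day 14, and 856 and 612 CPM at day 21. Ier2 had 1090.1 and 692 CPM in sham, 312 and 352 CPM at day 14, and 652 and 465 CPM at day 21. Sham and day 14 did not overlap in either gene, while day 21 library 1 of Klf2 was above sham library 2. Of 28 immediate-early genes 3 were lower and 0 higher at an unadjusted p under 0.05, against 3.44% of all genes lower. The list's median was -0.40 at day 14 and -0.03 at day 21. The pooled median of -0.19 was 0.02 without sham library 1, the library in which the list's median stood 0.26 above the sham mean.

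Ribosomal protein genes and oxidative phosphorylation genes had lower means under ISO, and this rested on 1 sham library. Of 81 cytosolic ribosomal protein genes, 22 were lower and 1 higher at an unadjusted p under 0.05, against 3.44% and 3.21% of all genes. Their median was -0.59. Of 75 oxidative phosphorylation genes, 17 were lower and 0 higher, and the median was -0.47. Against the sham mean, the ribosomal median was 0.39 in sham library 1 and -0.39 in sham library 2, and -0.32 to -0.77 in the ISO libraries. Without sham library 1 the 2 medians were -0.05 and 0.06, and without sham library 2 they were -0.93 and -0.91. Rps19 of the small ribosomal subunit had 393 and 139 CPM in sham and 92.3 to 127 CPM under ISO. Rpl13 of the large subunit, with 81.0 and 50.0 CPM in sham and 14.1 to 24.3 CPM under ISO, and Ndufb9 of complex I, with 169.8 and 116 CPM in sham and 54.6 to 70.3 CPM under ISO, kept apart from both sham libraries. Ribosomal protein genes have near-identical copies in the genome, so their counts are uncertain.

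This pattern moved with transcript length. Over genes of at least 5 CPM, the median log2 fold change was -0.31 in the 2514 with the shortest transcripts (109 to 2288 nt) and 0.19 in the 2512 with the longest (from 4986 nt). With offsets for transcript length and GC content, the medians of these sets were -0.07 and -0.05, that of the ribosomal genes was -0.30 and that of the oxidative phosphorylation genes -0.09. The offsets were fitted to the length and GC content of genes in these same libraries. The medians of the length sets were thus bound to draw together, and the part of length in the pattern was not tested. Of the 506 genes higher at an unadjusted p under 0.05, 101 were higher in sham library 1 than in sham library 2. The median log2 ratio of these libraries, 1 over 2, was 0 in the higher genes, 0.973 in the lower ones and 0 over all genes tested. A gene with 0 counts in both sham libraries has a ratio of 0, so a median of 0 does not show that the libraries agree. Of the 542 genes lower at that p, 441 (81.4%) were higher in sham library 1 than in sham library 2, against 41.3% of all genes tested. Srp9 and Etfb, named for their small p, were of this kind: Etfb had 123 CPM in sham library 1, 20.2 CPM in sham library 2 and 9.96 to 18.2 CPM under ISO. Srp9 had 78.3 and 22.2 CPM in sham and 9.44 to 19.9 CPM under ISO. Edf1, Chchd2, Chchd7 and Ppp1r14a also had the higher sham value in library 1. With the offsets, the log2 fold change of Etfb moved from -2.18 to -1.39 and that of Edf1 from -1.43 to -0.78, while that of Srp9 was -1.91 without and -2.04 with them.

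Several genes of protein folding in the endoplasmic reticulum and of detoxification were also highest in sham library 1. Calr, the chaperone calreticulin, had 2868 and 1157 CPM in sham, 749 and 1029.7 CPM at day 14, and 1233 and 1496 CPM at day 21. Atf4, a transcription factor of the integrated stress response, had 926 and 432 CPM in sham and 351 to 436 CPM under ISO. Of 26 folding and stress genes, 3 were lower and 0 higher at an unadjusted p under 0.05, against 3.44% of all genes lower. The list's median was -0.34. Without sham library 1 that median was 0.06, and 0 members reached this p. Of 29 oxidative stress and detoxification genes, 4 were lower and 0 higher, and the median of -0.23 was close to 0 without either sham library (-0.003 without library 1 and -0.018 without library 2). Mt1, a metallothionein, had 1465 and 569 CPM in sham and 422 to 732 CPM under ISO, and Sod1, a superoxide dismutase, had 531 and 210.1 CPM in sham and 174 to 235 CPM under ISO. Sham library 2 lay within the range of the ISO libraries in all 4 of these genes.

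A pair of cytosolic chaperones had sham libraries that lay close together. Hsph1, a large heat shock protein, had 30.1 and 31.2 CPM in sham, 58.1 and 89.6 CPM at day 14, and 124 and 75.6 CPM at day 21. Hspa2, a member of the Hsp70 family, had 24.4 and 23.9 CPM in sham and 35.6 to 69.8 CPM under ISO. Both were below all 4 ISO libraries in sham, at log2 fold changes of 1.48 and 0.89 (adjusted p of 0.582 and 0.725). Of 25 heat shock chaperones, 3 were higher and 1 lower at an unadjusted p under 0.05, against 3.21% and 3.44% of all genes. The median of this list was 0.07, and -0.28 without sham library 2. C4b, a complement protein, was of the same form, with 93.4 and 99.5 CPM in sham and 168, 175, 238 and 174 CPM under ISO. Spock2, a secreted proteoglycan, went the other way, with 60.6 and 79.5 CPM in sham and 35.0 to 43.2 CPM under ISO.

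**Figure D3:**
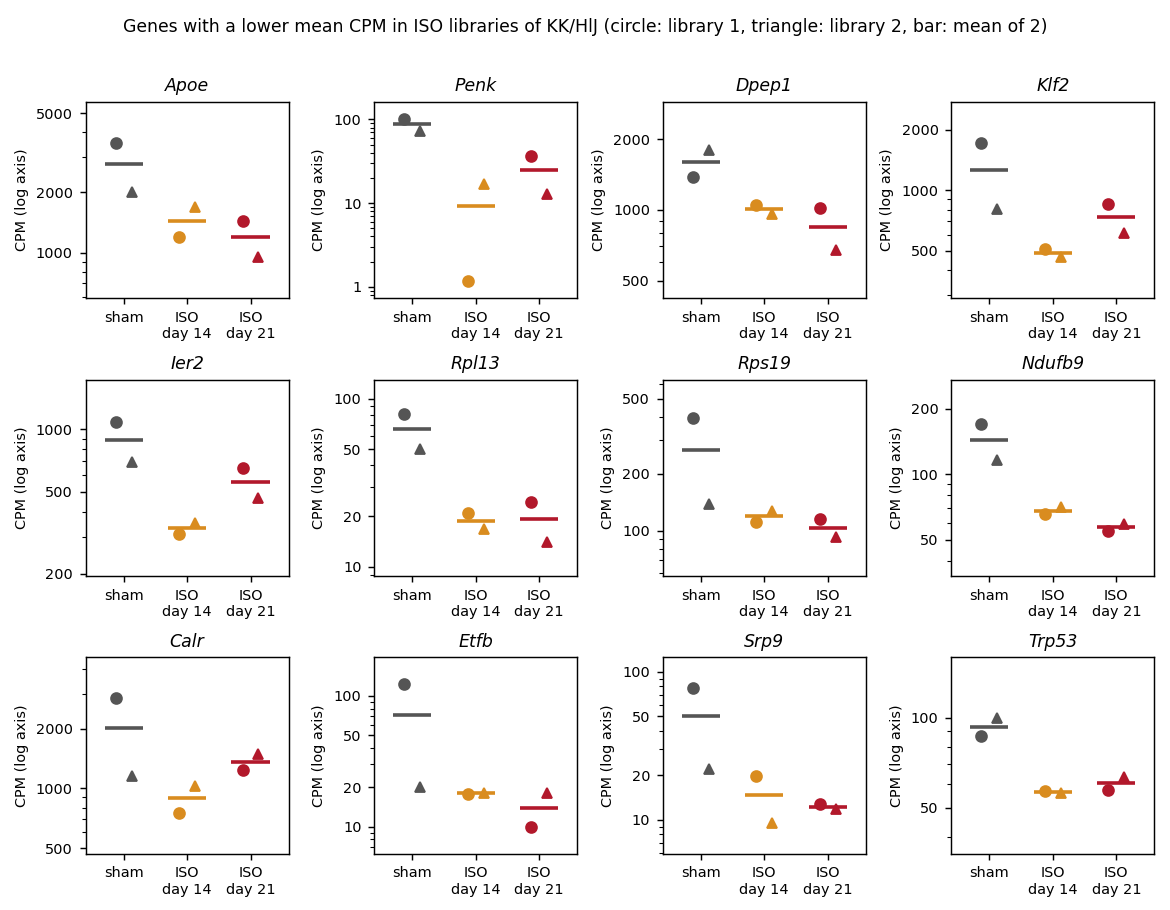
Level of 12 genes with a lower mean under ISO (vertical axes, CPM, log scale) in the 6 KK/HlJ libraries: circles are library 1, triangles library 2 and bars the mean of 2. Etfb at 123 and 20.2 CPM and Rps19 at 393 and 139 CPM show sham library 1 apart from sham library 2, while the sham libraries of Trp53 lie together at 87.1 and 99.6 CPM.

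**Figure D4:**
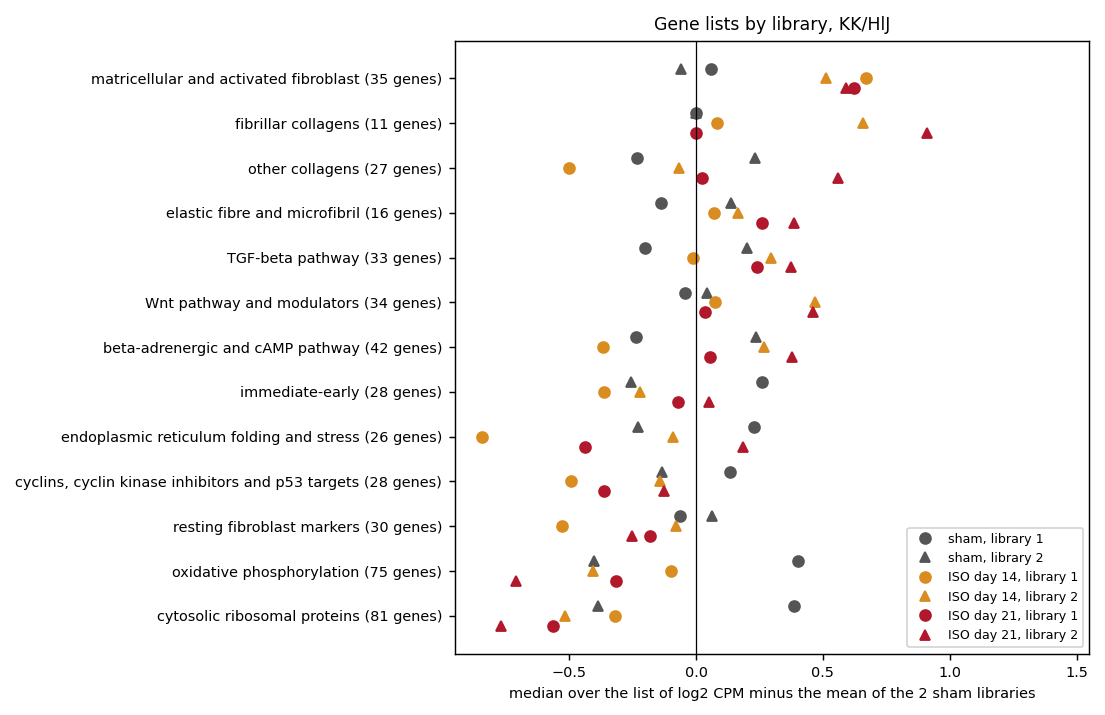
Median over each gene list of log2 CPM minus the mean of the 2 sham libraries (horizontal axis), 1 point for each KK/HlJ library. The ISO libraries of the matricellular list cluster at 0.51 to 0.67, while the sham libraries of the ribosomal list lie at 0.39 and -0.39.

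A set of genes was near 0 in sham and counted in every ISO library. In 30 genes both sham libraries had 3 counts or fewer, all 4 ISO libraries had more, and the ISO mean was at least 5 CPM. The genes were chosen by this difference, so it is a description. The same count was 0 in C57BL/6 and 4 in C3H/HeJ, whose sham libraries were deeper, so 3 counts there is a lower level. Sham totals were 25356498 and 24748674 in C57BL/6 and 12700814 and 19379717 in C3H/HeJ, against 12120730 and 10703774 in KK/HlJ. Of the 30 genes, 19 were above 3 counts in all 4 sham libraries of the other strains. Besides Uggt2 they include Eif5a2, a translation factor relative, with 0 counts in sham and 7.02, 11.5, 22.1 and 11.4 CPM under ISO. Nfatc2ip, a partner of the transcription factor NFATc2, had 0 and 1 counts in sham and 7.06 to 20.6 CPM under ISO. The ISO means were at least 48.4-fold and 49.4-fold higher than the floor for Eif5a2 and Nfatc2ip. Ak4, an adenylate kinase of mitochondria, was just above the floor in sham library 2, with 0 and 1.20 CPM in sham and 14.3 to 44.8 CPM under ISO. In the other strains the log2 fold changes of Eif5a2 were 0.44 and 0.53, and those of Nfatc2ip -1.01 and -0.21. The part of uneven libraries in this set was not tested.

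Other single genes with higher means had low sham levels as well. Gch1, which starts the synthesis of tetrahydrobiopterin, had 4.44 and 0.277 CPM in sham, 46.1 and 31.6 CPM at day 14, and 28.6 and 24.0 CPM at day 21 (adjusted p of 0.192). Cpe, carboxypeptidase E of peptide hormone processing, had 29.3 and 17.1 CPM in sham and 51.2, 77.3, 80.7 and 92.1 CPM under ISO. Fem1b, a substrate adaptor of ubiquitin ligases, had 18.2 and 17.0 CPM in sham, 39.2 and 62.2 CPM at day 14, and 76.9 and 77.0 CPM at day 21. None of the 3 overlapped between sham and ISO, at log2 fold changes of 3.75, 1.68 and 1.83.

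Inflammatory mediators went both ways, with 4 of 41 chemokine, cytokine and alarmin genes higher and 3 lower at an unadjusted p under 0.05. Over all genes the shares were 3.21% higher and 3.44% lower. Cx3cl1, the ligand fractalkine, had 8.79 and 3.23 CPM in sham, 35.2 and 27.1 CPM at day 14, and 27.5 and 22.8 CPM at day 21. Tnfaip6, a hyaluronan-binding protein, had 178 and 157 CPM in sham, 567 and 406 CPM at day 14, and 205 and 340.1 CPM at day 21. Il33, an alarmin, had 52.2 and 126 CPM in sham, 241 and 269 CPM at day 14, and 168 and 150 CPM at day 21. All 3 had their higher mean at day 14, and their ISO libraries lay above sham. Of 37 interferon-stimulated genes 4 were lower and 0 higher, with a median of -0.26. It was 0.33 without sham library 2, close to the 0.29 over all genes without that library.

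Metabolic and stress genes gave few members that set ISO apart. Cd36, a fatty acid transporter, had 8.44 and 5.91 CPM in sham and 22.4 to 50.4 CPM under ISO. Ucp2, a mitochondrial carrier, had 69.9 and 74.4 CPM in sham and 121 to 165 CPM under ISO. Both stood apart from sham, at log2 fold changes of 2.17 and 0.96 (adjusted p of 0.717 and 0.744). Hif1a, the oxygen-regulated transcription factor, had 10.8 and 35.9 CPM in sham and 31.6, 85.3, 94.5 and 92.2 CPM under ISO, so that day 14 library 1 overlapped sham. Of 20 cholesterol synthesis genes 0 were higher or lower at an unadjusted p under 0.05 (median -0.49, or -0.20 without sham library 1).

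Cell cycle genes were thinly counted. Mki67, a marker of cycling cells, was at 0 in 5 libraries and at 2.56 CPM in day 21 library 2, and 13 of 36 mitosis and S phase genes were at the floor in sham or ISO. Of 28 cyclin, cyclin kinase inhibitor and p53 target genes 5 were lower and 0 higher at an unadjusted p under 0.05, against 3.44% of all genes lower. Without sham library 1, 1 member reached this p, and the median moved from -0.24 to -0.04. Trp53, which encodes p53, had 87.1 and 99.6 CPM in sham, 56.8 and 56.1 CPM at day 14, and 57.4 and 63.1 CPM at day 21. Its groups did not overlap, at a log2 fold change of -0.68 (adjusted p of 0.725). Cdkn1c, a kinase inhibitor, had 154 and 64.5 CPM in sham and 35.7 to 54.1 CPM under ISO.

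Endothelial genes had a higher median under ISO, 0.69 over 23 genes, or 0.52 without the 4 at the floor in sham or ISO. Of the 23 genes, 3 were higher and 0 lower at an unadjusted p under 0.05, against 3.21% of all genes higher. The median over the 23 was 0.37 without day 14 library 1, 0.28 without day 21 library 2 and 1.12 without sham library 2. Cdh5, the cadherin of endothelial junctions, had 0 and 1.29 CPM in sham and 37.3, 9.15, 14.3 and 21.2 CPM under ISO, and Emcn, an endothelial sialomucin, had 0 and 0.277 CPM in sham and 7.04 to 21.2 CPM under ISO. Both are low, and both lay above sham in all 4 ISO libraries. Emcn is 1 of the 30 genes near 0 in both KK/HlJ sham libraries. It averaged 8.16 CPM in C57BL/6 sham and 5.39 CPM in C3H/HeJ sham, with log2 fold changes of -1.25 and 0.86 there. The summed endothelial level was highest, at 1773 CPM, in day 14 library 1, the library that was also high in macrophage (148.7 CPM) and erythroid and platelet (268.3 CPM) markers. The part of these cells in any result above was not tested.

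Between the days, edgeR called 0 genes, with 166 at an unadjusted p under 0.05, 68 higher (0.431%) and 98 lower (0.622%) at day 21, and DESeq2 called 4. Jun, a subunit of AP-1, had 462 and 761 CPM at day 14 and 1431 and 1097 CPM at day 21, beside 971 and 1635 CPM in sham. It was thus below sham at day 14 and within the sham range at day 21, and the day difference of 1.05 on the log2 scale did not pass (adjusted p of 1). Enpp1, which makes pyrophosphate from nucleotides, had 53.5 and 89.1 CPM at day 14 and 188 and 118 CPM at day 21. Apod, a lipocalin, had 57.7 and 81.7 CPM at day 14 and 168 and 101 CPM at day 21. In the other direction, Hmox1, heme oxygenase, had 186 and 141 CPM at day 14 and 61.5 and 94.7 CPM at day 21, beside 64.2 and 87.0 CPM in sham. Rbp4, the retinol carrier, had 76.8 and 25.2 CPM at day 14 and 10.8 CPM in both day 21 libraries. The days did not overlap in any of these 5 genes.

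No gene passed the test of a difference between the KK/HlJ response and the mean response of the other 2 strains (edgeR called 0, with 715 at an unadjusted p under 0.05, 450 higher (2.85%) and 265 lower (1.68%), and DESeq2 called 79). Against C57BL/6 alone edgeR called 0, with 806 at an unadjusted p under 0.05, and against C3H/HeJ alone 0, with 659. Postn had a pooled log2 fold change of 2.21 in KK/HlJ, 1.74 in C57BL/6 and 2.55 in C3H/HeJ, a difference of 0.06 ± 0.41 (SE) between KK/HlJ and the other 2. In the other strains' own pooled tests edgeR called 1 gene in C3H/HeJ (0.00634%), Postn, at an adjusted p of 0.0145, and 0 in C57BL/6. Ltbp2 had 2.06, 1.11 and 1.75, and Cilp 1.53, 1.21 and 0.98, in the same order of strains. The matricellular list had a median of 0.51 in KK/HlJ, 0.70 in C57BL/6 and 0.64 in C3H/HeJ.

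For a higher response in KK/HlJ than in the other strains, the naming rule gave Uggt2, Nfatc2ip, Eif5a2, Ralgps1 and Atm. All were at the floor in KK/HlJ sham. Smad1 and Fem1b were above it and were named by other rules. Smad1 had a log2 fold change of 1.93 in KK/HlJ, -0.21 in C57BL/6 and 0.32 in C3H/HeJ, and the difference did not pass. Fem1b had 1.83, 0.15 and 0.37 in the same order. Maml2, a coactivator of Notch, went the other way, with 51.1 and 36.5 CPM in KK/HlJ sham and 24.2, 21.2, 6.98 and 13.4 CPM under ISO, a log2 fold change of -1.53 beside 0.53 and 2.08 (adjusted p of 0.91 for the difference). Vcp, an ATPase that extracts proteins for degradation, had -1.13, 0.06 and 0.82. The median of the ribosomal list was -0.59 in KK/HlJ, 0.20 in C57BL/6 and -0.47 in C3H/HeJ. The submitters' processing notes name 1 genome build for all strains, mm10, which derives from C57BL/6.

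**Figure D5:**
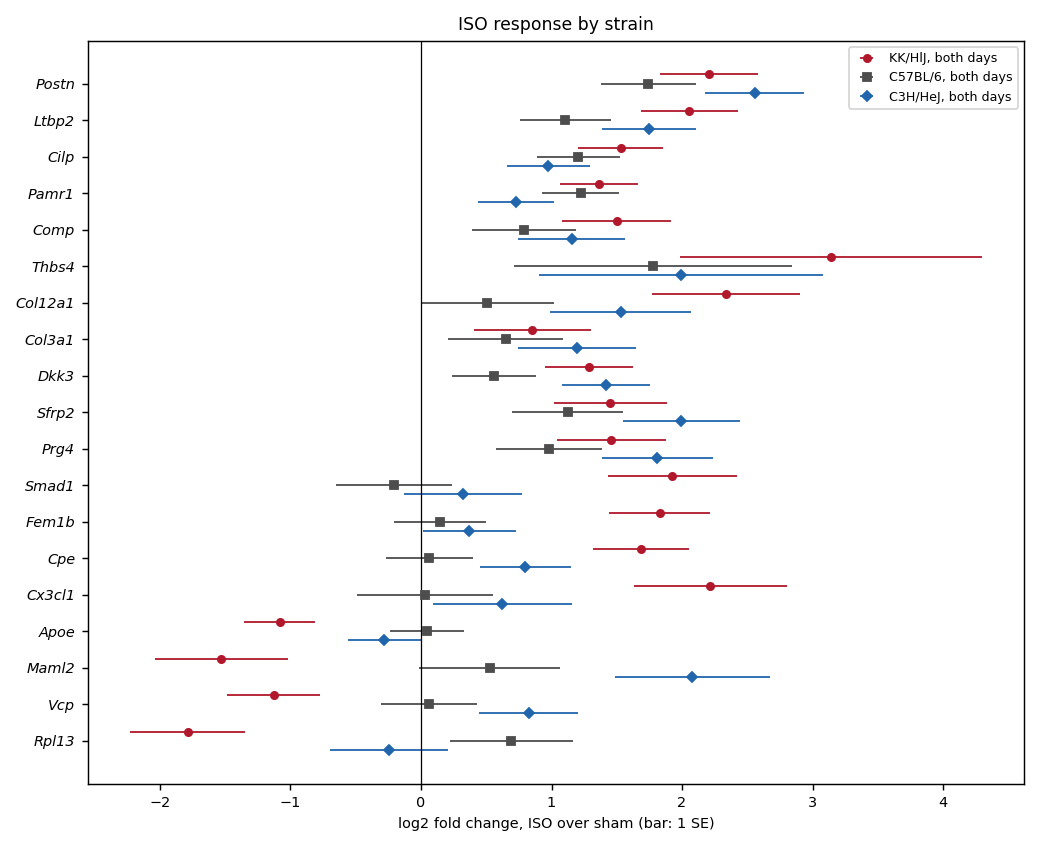
Pooled log2 fold change of ISO over sham (horizontal axis, bars of 1 SE) for 19 genes in KK/HlJ, C57BL/6 and C3H/HeJ. Postn, Ltbp2 and Cilp are above 0 in all 3 strains, while Smad1 lies at 1.93 in KK/HlJ and at -0.21 and 0.32 in the others.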

How the data were processed

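RNA of sorted cardiac Thy1+ cells was sequenced as single-end reads on a HiSeq 3000, per the labels' protocols. The authors deposited raw counts per Ensembl gene for each library, and the submitters' processing notes name FastQC, STAR 2.5.3a, edgeR and the genome build mm10. The annotation release, the counting tool and the strand setting were not given in the sources used here, so reads of overlapping genes cannot be told apart. Of 53342 identifiers, 53237 matched GENCODE M21, and the 105 others held 0.00159% of reads.

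All 18 libraries, in 9 groups of strain and condition, entered 1 edgeR 4.0.16 quasi-likelihood fit (R 4.3.3, TMM scaling, 15762 genes after edgeR's filter on low counts, 9 residual degrees of freedom), with p-values adjusted by Benjamini-Hochberg over all genes tested and a threshold of 0.05. The pooled contrast is the mean of the day 14 and day 21 coefficients minus sham. Standard errors were derived from the fold change and its F statistic. CPM of single genes use the TMM library sizes, and marker sums use total counts. The KK/HlJ sham totals were 12120730 and 10703774, those of day 14 were 7230741 and 23832629, and day 21 had 20339795 and 8104823. A floor of 3 counts per library was used where a group was at 0, which covers counting error only. The pooled edgeR fit was also run on simulated counts, drawn with the same spread in every library. That run does not cover the uneven KK/HlJ libraries.

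Genes were named by rule: those with all 4 ISO libraries on one side of both sham libraries and a mean of at least 5 CPM in the higher group, 10 each way in order of unadjusted p where fewer passed, up to 6 of each list, up to 5 each way between days and between strains, and a fixed set of fibroblast and receptor genes. Of these, the text gives those with the clearest values. The members, gene lists and rules were chosen with earlier results of these data known. Alternatives were DESeq2 1.42.0, limma 3.58.1 voom with library weights, RLE scaling, other filters, a replicate block, the 6 KK/HlJ libraries alone, 1 ISO term for both days, and leaving out libraries. Offsets for transcript length and GC content were added after the data were seen. Some items under the naming rule are not reported here.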

Additional observations from a re-analysis of the deposited data

Results flagged for a closer look

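Among 81 values of genes and marker lists, 6 had 1 of the 4 KK/HlJ ISO libraries farther from the others than the 95% limit of Dixon's test for 4 samples allows. Chance alone sets apart about 1 in 20 groups. Day 14 library 1 was the library concerned in 5 of the 6. It was low for Hif1a, at 31.57 CPM, and high for Acta2, at 874.1 CPM, and for Ppp1r14a, a regulator of smooth muscle myosin phosphatase, at 105.6 CPM. Its summed level of macrophage and monocyte markers was 148.7 CPM, and that of erythroid and platelet markers 268.3 CPM. Day 21 library 1 was low for Etfb, at 9.964 CPM.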

How the results depend on the processing

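The main edgeR test called 0 genes with the days pooled, 0 at day 14, 3 at day 21, 0 between the days and 0 for the difference from the other strains. DESeq2 called 254, 148, 161, 4 and 79 in that order, and edgeR without a filter on low counts 89, 41, 41, 5 and 27. Day 21 had 0 calls with RLE scaling, with a mean of at least 5 CPM, with only the 6 KK/HlJ libraries and in limma voom with library quality weights. The pooled count was 2 with 1 ISO term for both days and 4 with offsets for transcript length and GC content. Those 4 include the 3 genes called at day 21. Leaving out each library in turn gave 27 to 645 pooled calls, 15 to 808 at day 14, 22 to 527 at day 21, 0 to 663 between the days and 13 to 468 for the strain difference. The pooled count was 645 without day 14 replicate 2 (96 higher, 549 lower), 453 without day 21 replicate 2, 365 without sham replicate 2, 79 without day 14 replicate 1, 60 without day 21 replicate 1 and 27 without sham replicate 1. Each such fit leaves 1 library in a group, which is assumed to vary like the other groups. That library adds nothing to the estimate of the spread, so these counts cannot be set against those of the main test. Without the 3 KK/HlJ libraries numbered 1, the counts were 153, 110, 135, 3 and 84. The cause of these shifts was not tested.

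The replicate numbers did not pair the libraries: deviations of same-numbered KK/HlJ libraries correlated at 0.11 between sham and day 14, -0.024 between sham and day 21, and 0.18 between the days. With the replicate block, 1 gene passed pooled (Postn) and 1 at day 14, and 2 at day 21.

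Of the pooled log2 fold changes of single genes, 3 turned. Pdgfra ran from -0.28 (without day 14 replicate 2) to 0.92 (without sham replicate 2), with -0.25 without sham replicate 1. Tcf21 ran from -0.50 (without sham replicate 1) to 0.10 (without sham replicate 2), and Acta2 from -0.28 (without day 14 replicate 1) to 0.41 (without day 14 replicate 2), with -0.25 without the 3 libraries numbered 1. The median over all genes was 0.06, and moved to 0.19 without sham replicate 1, 0.29 without sham replicate 2 and 0.20 without the 3 libraries numbered 1. Across all settings, 605 list medians moved by less than the SD of the ISO libraries and 119 by more. The depth of 7230741 counts in day 14 replicate 1 limits genes of a few CPM.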
